A study of Mus musculus with 12 samples.

Results

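The 39 genes described here encode the protein coats of vesicles that travel between the endoplasmic reticulum (ER) and the Golgi, the GTPases that recruit those coats, and the membrane receptors that load cargo into them. They were found by their symbols in the tables of mouse brain and neurosphere reads, and they are 39 of 21924 genes with an exon length above 0 there. By role they are 9 genes of the COPI coat, 3 genes for the GTPases and exchange factor that recruit COPI, 9 genes of the COPII coat, 3 genes for the COPII GTPases and scaffold, 3 genes for cargo lectins and their partner, 3 KDEL receptors, 8 Tmed (p24) proteins, and Srpr, a subunit of the receptor that docks ribosomes with a signal peptide at the ER.

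Newly made secretory and membrane proteins leave the ER in COPII vesicles. The GTPase Sar1 starts each bud at a site marked by the scaffold Sec16; an inner layer of Sec23 and Sec24 picks up cargo, and an outer layer of Sec13 and Sec31 shapes the bud. COPI vesicles, built from coatomer after the GTPase Arf1 is loaded by Gbf1, carry receptors and escaped ER proteins back. KDEL receptors catch ER chaperones in the Golgi for that return, lectins such as Lman1 move glycoproteins forward, and Tmed proteins cycle between both compartments as cargo adaptors. In dividing progenitors and growing neurons this traffic supplies surface receptors, adhesion proteins and lysosomal enzymes, and several coat and receptor genes are known targets of the unfolded protein response.

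RNA was sequenced from 12 libraries in 4 groups of 3. The knockout, called CKO, is labelled as a conditional loss, within neural stem cells, of the (pro)renin receptor. Atp6ap2 encodes this receptor, which is also a partner of the proton pump that acidifies lysosomes. Which Cre line drives the deletion is not stated in the labels. The groups are CKO whole brain (title fy/cre, genotype label (P)RR_CKO) and control whole brain (title fy/-, genotype label Wildtype), both from embryonic day 15, and CKO and control primary neurospheres with the same titles and genotype labels, grown from forebrain neural stem cells of embryonic day 16. All 12 are labelled male and C57BL/6J. Neurospheres, abbreviated NSC in the labels, are floating clusters of cultured neural stem cells and their progeny. Nothing in the labels says that replicates came from separate animals or cultures, so every p-value measures only the spread between these libraries, which may be technical.

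Brain libraries held 5669338 to 6675874 exon reads and neurosphere libraries 12382975 to 18636787. Reads inside genes but outside exons, called intron reads here, were 63.72 to 65.46% of the reads within genes in each brain library and 7.61 to 14% in each neurosphere library. Atp6ap2 stood at 62.2, 48.6 and 54.0 CPM (normalised exon counts relative to the library total) in CKO neurospheres and 96.9, 96.6 and 95.1 CPM in control neurospheres, a log2 fold change of -0.81 ± 0.11 (SE, n = 3 each; edgeR adjusted p = 0.00965). In brain it stood at 60.6, 67.6 and 64.8 CPM in CKO and 64.8, 67.1 and 78.3 CPM in control, a log2 fold change of -0.12 ± 0.09 that did not pass the test (adjusted p = 0.792). Control neurosphere 1 went against its label: it held 1 read from 4 Y-linked genes, while the other control neurosphere libraries held 2482 and 2992. It also had the highest intron share of the neurosphere libraries, 14%, so neurosphere counts are also given without both libraries numbered 1.

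Where a protein-folding load is sensed, activated transcription factors bind short promoter letters, and one of the best known is the core of the unfolded protein response element, TGACGTGG. These letters were searched on both strands of the 300 bases around each annotated gene start, from 250 bases before it, in RefSeq promoters on GRCm38.p6. Of the 39 genes 34 had a promoter entry; Arcn1, Lman1, Kdelr2, Tmed2 and Tmed7 had none. The letters stood in 7 of the 34 (20.6%), against 193 of 27025 genes with a promoter entry (0.714%) and 114 of 11078 such genes that were tested in brain or neurospheres (1.03%). The 48 bases around each match follow, 5′ to 3′ on the gene's own strand, because they hold letters that several members share; the capitals mark TGACGTGG or its reverse complement CCACGTCA.
Copb2: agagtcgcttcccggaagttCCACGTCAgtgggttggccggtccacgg
Copb1: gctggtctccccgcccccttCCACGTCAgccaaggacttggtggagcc
Arf1: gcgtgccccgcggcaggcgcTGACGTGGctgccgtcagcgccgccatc
Gbf1: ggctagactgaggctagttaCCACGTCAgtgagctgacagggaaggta
Sec23a: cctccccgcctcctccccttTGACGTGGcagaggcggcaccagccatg
Sec24d: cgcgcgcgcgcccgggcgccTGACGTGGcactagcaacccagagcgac
Kdelr3: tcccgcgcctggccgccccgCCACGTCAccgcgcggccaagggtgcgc

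The windows lie at chr9:98563704-98563751 on the plus strand for Copb2, chr7:114254681-114254728 on the minus strand for Copb1, chr11:59228219-59228266 on the minus strand for Arf1, chr19:46152526-46152573 on the plus strand for Gbf1, chr12:59011984-59012031 on the minus strand for Sec23a, chr3:123267450-123267497 on the plus strand for Sec24d and chr15:79516358-79516405 on the plus strand for Kdelr3. The first letter of the match stood between 30 bases before and 6 bases after the start site in 6 of the genes, while Arf1 has entries for 2 starts, from which the same match stood 84 bases before and 21 bases after. The whole promoter of Copb2 (chr9:98563481-98563780, plus strand) is shown since Copb2 was called in brain exon reads, in brain intron reads and in neurosphere exon reads.
Copb2 promoter: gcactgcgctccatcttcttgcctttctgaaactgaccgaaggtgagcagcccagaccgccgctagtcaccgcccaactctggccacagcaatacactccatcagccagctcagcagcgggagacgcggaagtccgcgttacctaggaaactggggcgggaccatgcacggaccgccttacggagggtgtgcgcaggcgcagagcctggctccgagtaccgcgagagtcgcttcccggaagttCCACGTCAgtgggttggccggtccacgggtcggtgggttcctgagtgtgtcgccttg

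Other letters were searched in the same windows. CCACG, which the reverse complement of TGACGTGG contains, stood in 76.5% of the 34 promoters and in 51.6% of promoters of tested genes. CCAAT stood in 41.2%, close to the 43.3% of tested genes. The longer ER stress elements ERSE and ERSE-II, in which CCAAT or its complement stands near CCACG, matched 0 of the 34 promoters, and they matched 0.172% and 0.0722% of those of tested genes. The cyclic AMP response element TGACGTCA matched 1 promoter, that of Cope (2.94%, against 3.52% of tested genes), and TGATGNAAN, a form of the ATF4 element, matched 1, that of Kdelr1 (2.94%, against 2.74%). A match is a description of the letters, not of binding.

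In CKO brains the coat and receptor genes leaned upward together, mostly by small amounts. Copb2, a subunit of the COPI coat, Kdelr2, a receptor that returns ER chaperones, and Srpr rose, and no member fell. Of 39 genes 38 had enough exon reads to be tested; 3 were higher at an adjusted p below 0.05, where 0.243% of all 13557 tested genes were, and 0 were lower, where 0.199% were (edgeR; 0 lower at an unadjusted p under 0.05 and 0 lower by DESeq2). The log2 fold change was above 0 for 36 of the 38, against 50.9% of all tested genes, with a median of 0.20 against 0.00 for all. All 3 CKO libraries lay above all 3 control libraries for 19 of the 38, where 7.24% of all tested genes showed that separation, and below them for 0, where 7.16% did. In whole tissue, more cells of a type and more RNA per cell cannot be told apart.

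**Figure D1:**
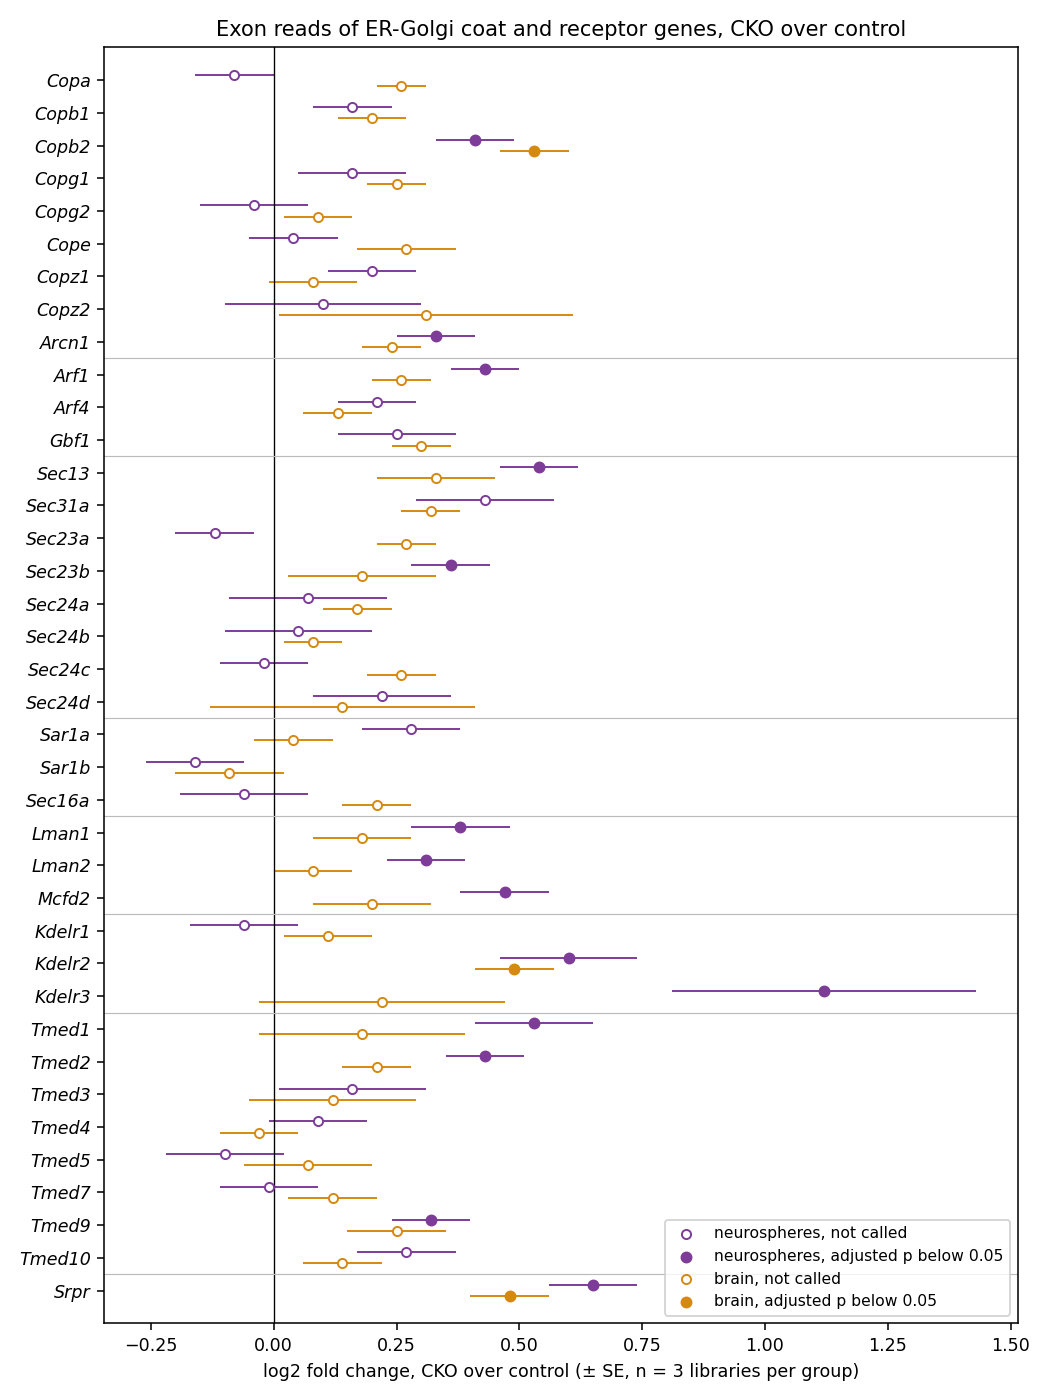
Log2 fold change of exon reads, CKO over control, with its SE (n = 3 libraries per group), for the 38 tested genes; rows run by role from the COPI coat to Srpr, and filled points have an adjusted p below 0.05. In brain 36 of 38 points lie right of 0 and 3 are filled, and in neurospheres 29 of 38 lie right of 0 and 14 are filled.

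All 9 COPI coat genes had a positive log2 fold change in brain, from 0.08 to 0.53. Copb2 held 194.4, 185.2 and 192.1 CPM in CKO brains and 130.1, 120.7 and 144.4 CPM in control brains. Every CKO library exceeded every control library, and Copb2 rose by 0.53 ± 0.07 on the log2 scale (SE, n = 3 each; adjusted p = 0.0138). Copa, the largest coatomer subunit, held 386.7, 388.2 and 388.8 CPM in CKO brains and 330.3, 314.6 and 329.2 CPM in control brains. Its groups did not overlap, but the log2 difference of 0.26 ± 0.05 did not pass over all genes (adjusted p = 0.0788). Copg2 and the paralogous zeta subunits Copz1 and Copz2 overlapped between groups. Among the factors that recruit COPI, Gbf1, the exchange factor, held 193.5, 197.9 and 187.1 CPM in CKO brains and 149.4, 152.8 and 166.7 CPM in control brains (0.30 ± 0.06, adjusted p = 0.088), and Arf1 had 0.26 ± 0.06 (adjusted p = 0.125); neither passed.

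The 8 tested COPII coat genes had log2 fold changes of 0.08 to 0.33 in brain and none was called by edgeR (5 higher and 0 lower at an unadjusted p under 0.05; 1 higher by DESeq2). Sec31a, the outer-layer subunit, held 162.1, 160.2 and 151.1 CPM in CKO brains and 127.1, 121.9 and 130.2 CPM in control brains. The groups were separate and the difference was 0.32 ± 0.06 (adjusted p = 0.0617); in the authors' deposited table Sec31a passed, with a signed fold change of 1.247 and an FDR-corrected p of 0.0369. Sec23a, an inner-layer subunit that activates the Sar1 GTPase, held 192.1, 190.1 and 193.7 CPM in CKO brains and 157.1, 162.7 and 158.4 CPM in control brains, again with no overlap (0.27 ± 0.06, adjusted p = 0.0855). Of the COPII GTPases, Sar1a had a log2 fold change of 0.04 ± 0.08 and Sar1b of -0.09 ± 0.11, and both overlapped between groups. Sec31b, the paralog of Sec31a, had only 4, 7 and 2 exon reads in CKO brains and 2, 2 and 3 in control brains and was not tested.

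Among the receptors, Kdelr2 held 94.7, 85.6 and 87.7 CPM in CKO brains and 60.2, 61.4 and 69.5 CPM in control brains. The CKO libraries were all higher, and Kdelr2 rose by 0.49 ± 0.08 (adjusted p = 0.0405). Its paralogs Kdelr1, at 0.11 ± 0.09, and Kdelr3, at 0.22 ± 0.25, overlapped between groups. Srpr held 69.1, 72.0 and 68.3 CPM in CKO brains and 50.8, 45.1 and 53.9 CPM in control brains, and rose by 0.48 ± 0.08 (adjusted p = 0.0435). Annotation places 3 genes, Tirap, Foxred1 and Fam118b, on the opposite strand over Srpr, and the sources used here do not state whether reads were counted by strand. The 8 Tmed genes ranged from -0.03 to 0.25 and the cargo lectins and Mcfd2 from 0.08 to 0.20, with none called (2 Tmed genes and 0 lectin genes higher at an unadjusted p under 0.05, and 0 by DESeq2). The authors' deposited table also gave Copb2, Kdelr2 and Srpr as higher in CKO brains, with signed fold changes of 1.444, 1.401 and 1.395.

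The brain calls were close to the threshold. Leaving out 1 library at a time left at most 1 called member: Copb2 stayed called without CKO brain 1 and without CKO brain 2, and 0 members were called without any other single brain library. The log2 fold changes stayed between 0.47 and 0.61 for Copb2, 0.44 and 0.56 for Kdelr2, and 0.41 and 0.54 for Srpr. Some marker levels moved with genotype in the same libraries. The 8 microglia markers summed to 68.7 to 89.9 CPM in CKO brains and 48.5 to 60.8 CPM in control brains, with none at 0. Of the 7 tested, 6 had a log2 fold change above 0 and edgeR called 1, Fcrls. P2ry12 went the other way, at -0.63 ± 0.27, and was not called. Astrocyte markers summed to 139 to 163 CPM in CKO and 187 to 227 CPM in control. Of 5 tested, 2 were called lower and S100b was above 0 (0.23 ± 0.45). Neuron markers summed to 4610 to 4930 CPM in CKO and 5130 to 5500 CPM in control. Of these 6, edgeR called 0 and 2 were above 0 (1 lower by DESeq2). Sums overlapped between genotypes for the stem cell, endothelial, fibroblast and pericyte, and oligodendrocyte lineage markers. Among stem cell markers Fabp7 was called lower (-0.79 ± 0.08, edgeR adjusted p = 0.00535). The part of these shifts in the coat gene differences was not tested.

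Intron reads, which can come from unspliced RNA but whose source was not tested, gave a second measure in the same brain libraries. Arf1, Copa, Copb2, Gbf1 and Sec31a rose in CKO brains, so of the 5 genes called 4 belong to COPI or its recruitment and 1 to COPII. All 39 members were tested; 5 were higher, where 0.138% of 13756 tested genes were, and 0 were lower, where 0.167% were (edgeR; 0 lower at an unadjusted p under 0.05 and by DESeq2). The log2 fold change was above 0 for 34 of 39, against 50.6% of all genes. For 17 of 39 every CKO library lay above every control library, against 5.88% of all genes, and for 0 below, against 6.81%. Copb2 is the one member called in both measures, 33.3% of the 3 called on exon reads and 1 of the 5 called on intron reads.

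Arf1, the GTPase that anchors COPI to Golgi membranes, held 68.5, 55.9 and 65.6 CPM of intron reads in CKO brains and 37.5, 39.5 and 38.9 CPM in control brains. The lowest CKO library stood well above the highest control library, and Arf1 intron reads rose by 0.71 ± 0.09 on the log2 scale (adjusted p = 0.00764). Copa held 112.3, 109.9 and 112.4 CPM of intron reads in CKO brains and 81.7, 81.3 and 82.8 CPM in control brains, and rose by 0.45 ± 0.06 (adjusted p = 0.0092). The libraries of each group lay close together, and the groups were far apart. Copb2 intron reads rose by 0.52 ± 0.08 (adjusted p = 0.0276), with 37.5, 35.5 and 33.9 CPM in CKO and 25.2, 23.9 and 25.4 CPM in control. Gbf1 rose by 0.41 ± 0.06 (adjusted p = 0.0262), with 263.5, 251.8 and 263.7 CPM in CKO and 207.7, 184.9 and 191.8 CPM in control. Sec31a rose by 0.38 ± 0.06 (adjusted p = 0.0285), with 104.6, 107.3 and 104.7 CPM in CKO and 77.4, 80.0 and 85.7 CPM in control. None of these 3 genes overlapped between groups.

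**Figure D2:**
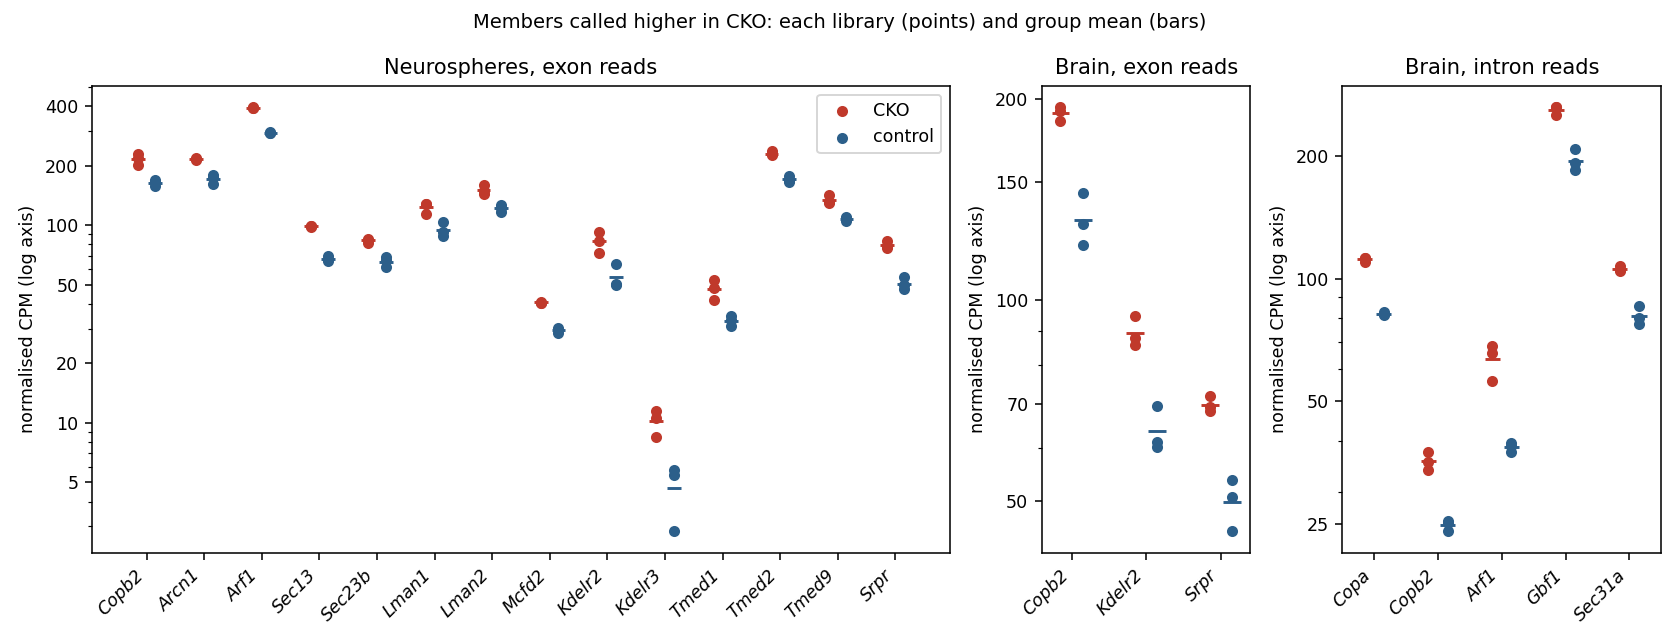
Normalised CPM (log axis) of each library (points) and the group mean (bars), CKO in red left of control in blue, for the members called on neurosphere exon reads, brain exon reads and brain intron reads. For each of these genes in its panel the lowest CKO point lies above the highest control point.

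Whether exon and intron reads moved by different amounts was tested for each gene as the difference of the log2 effects. Arf1 was the 1 member called, with an exon effect smaller than its intron effect by 0.45 ± 0.08 on the log2 scale (-0.45, edgeR adjusted p = 0.00157); 0.0319% of 12522 tested genes were called in that direction and 0.016% in the other, where 0 members were (1 at an unadjusted p under 0.05; DESeq2 was not run on it). Its exon reads stood at 269.8, 249.3 and 270.1 CPM in CKO brains and 224.7, 211.3 and 223.0 CPM in control brains, a separation of 0.26 against 0.71 for its introns. The Arf1 difference stayed called without each of the 6 brain libraries in turn, with adjusted p-values of 0.00136 to 0.0438. No annotated gene overlaps Arf1 or Sec31a on either strand. The other members called on brain intron reads do have overlaps. Ncstn and Gm37756 lie over Copa on the opposite strand and Gm38164 on the same strand. Gm16726 and Gm8974 lie over Gbf1, and Gm47147 over Copb2, all on the opposite strand. The part of these genes in the intron reads was not tested. Copa leaned the same way as Arf1, at -0.19 ± 0.06, and Srpr the other way, at 0.28 ± 0.10, and neither passed (adjusted p = 0.919 for each). For Copb2 the difference was 0.01 ± 0.09.

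The brain intron calls also rest on few libraries. Without control brain 1 and without control brain 3, 0 members were called. Without each of the other 4 libraries 1 to 3 were called, among them Arf1 each time. Its adjusted p ranged from 0.00264 to 0.0711 over the 6 fits.

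**Figure D3:**
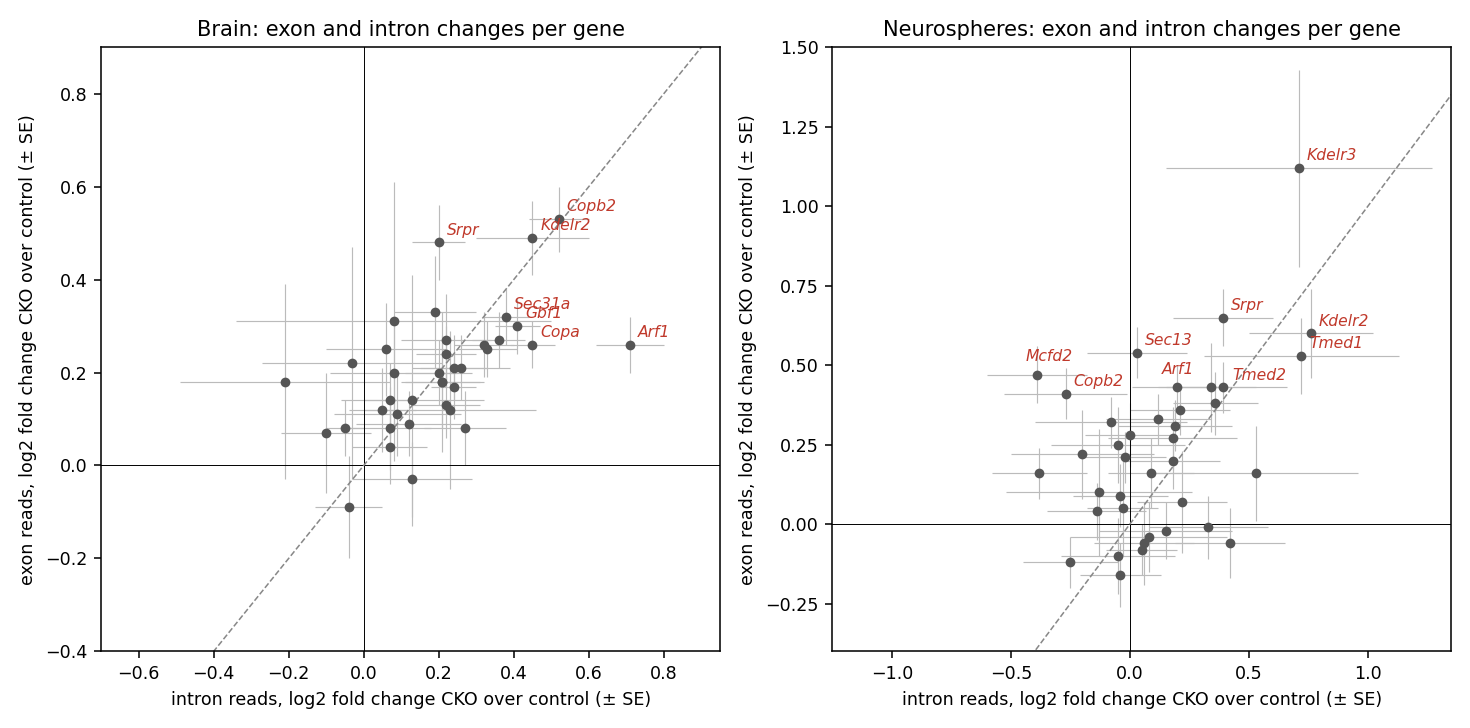
Log2 fold change of exon reads against that of intron reads, CKO over control, each with its SE (n = 3 per group), for the 38 genes tested in both; the dashed line marks equal effects and red names mark genes called in that tissue (some left out in neurospheres for space). In brain Arf1 stands right of the line at 0.71 for introns and 0.26 for exons. In neurospheres the intron SEs are wider and 0 members were called on introns with all 6 libraries. Without both libraries numbered 1 there were 7, and the share of all genes in that fit is not given.

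In CKO neurospheres 14 members rose and none fell, by role all 3 of the lectin group, 2 of 3 KDEL receptors and 3 of 8 Tmed genes, with 2 of 9 COPI coat genes, 2 of 8 tested COPII coat genes, 1 of 3 COPI recruiters, 0 of 3 COPII GTPase and scaffold genes (1 at an unadjusted p under 0.05; 0 by DESeq2) and Srpr. The 14 of 38 tested stand beside 14.7% of all 13316 tested genes called higher, and the 0 lower beside 12.0% called lower (edgeR; 0 lower at an unadjusted p under 0.05 and 0 by DESeq2). The median log2 fold change was 0.22, against -0.02 for all genes, and 29 of 38 were above 0, against 48.5% of all. For 20 of the 38 every CKO library lay above every control library, against 25.3% of all genes, and for 0 below, against 22.8%. All 3 members called on brain exon reads were among the 14 (21.4% of them), and 28 of the 38 genes were above 0 in both tissues.

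KDEL receptors held the largest difference. Kdelr3, the least abundant of the 3, stood at 8.48, 10.6 and 11.4 CPM in CKO neurospheres and 5.75, 2.82 and 5.47 CPM in control neurospheres. Control neurosphere 2 was far below the other controls, with 35 exon reads, yet all CKO libraries were above all controls, and Kdelr3 rose by 1.12 ± 0.31 (adjusted p = 0.0393), a call lost with a replicate block. Ddx17 lies over Kdelr3 on the opposite strand, and the part of Ddx17 in these reads was not tested. Kdelr2 held 92.5, 83.4 and 72.4 CPM in CKO and 64.0, 49.8 and 50.2 CPM in control and rose by 0.60 ± 0.14 (adjusted p = 0.0281). Kdelr1 overlapped between groups, with 79.4, 95.9 and 97.9 CPM in CKO, 88.3, 96.3 and 101.1 CPM in control and a log2 fold change of -0.06 ± 0.11.

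Each gene of the cargo lectin group rose, although Lman1 lost its call with a replicate block and Lman2 with no filter on low counts. Mcfd2, the soluble partner with which Lman1 exports coagulation factors, held 40.9, 40.6 and 40.6 CPM in CKO neurospheres and 30.0, 28.5 and 29.6 CPM in control neurospheres. The CKO values were nearly identical to one another, and the log2 fold change was 0.47 ± 0.09 (adjusted p = 0.016). Lman1 held 114.5, 128.6 and 127.5 CPM in CKO and 104.2, 88.1 and 92.7 CPM in control and rose by 0.38 ± 0.10 (adjusted p = 0.0357). Lman2, a lectin of the same family, held 143.6, 159.2 and 149.5 CPM in CKO and 116.5, 122.7 and 126.5 CPM in control and rose by 0.31 ± 0.08 (adjusted p = 0.0382).

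Of the Tmed proteins, Tmed2, a core adaptor of COPI and COPII vesicles, held 235.9, 225.3 and 228.8 CPM in CKO neurospheres and 164.9, 169.5 and 177.7 CPM in control neurospheres and rose by 0.43 ± 0.08 (adjusted p = 0.0147). Tmed1 rose by 0.53 ± 0.12 (adjusted p = 0.023), with 42.0, 48.2 and 52.5 CPM in CKO and 33.1, 34.8 and 30.9 CPM in control. Tmed9 rose by 0.32 ± 0.08 (adjusted p = 0.0319), with 130.0, 131.3 and 142.0 CPM in CKO and 104.5, 109.1 and 110.1 CPM in control. The groups were separate for these 3 and for Tmed10, which did not pass (0.27 ± 0.10, adjusted p = 0.0864). Tmed3, Tmed4, Tmed5 and Tmed7 overlapped between groups, with log2 fold changes of -0.10 to 0.16. Dnm2 lies over Tmed1 on the opposite strand, and 97.0% of Tmed1 exon reads were placed at 1 position.

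Among the coats, Sec13, which serves both the COPII outer layer and the nuclear pore, held 98.8, 97.7 and 99.2 CPM in CKO neurospheres and 69.9, 67.8 and 65.7 CPM in control neurospheres. It rose by 0.54 ± 0.08 (adjusted p = 0.0102), with CKO libraries almost level. Sec23b held 81.7, 85.2 and 84.3 CPM in CKO and 61.1, 66.6 and 68.7 CPM in control. Sec23b rose by 0.36 ± 0.08 (adjusted p = 0.0275), a call lost in 1 fit of all 12 libraries. Its paralog Sec23a stood at 106.0, 108.0 and 116.8 CPM in CKO and 114.0, 122.7 and 122.1 CPM in control, a log2 fold change of -0.12 ± 0.08 that did not pass. Sec31a, at 0.43 ± 0.14, had separate groups and missed the threshold (adjusted p = 0.0649). The 4 Sec24 genes, whose products bind different cargo signals, had -0.02 to 0.22 and overlapped between groups.

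COPI showed a similar split between subunits. Copb2 held 202.1, 219.1 and 228.8 CPM in CKO neurospheres and 157.1, 165.1 and 168.5 CPM in control neurospheres and rose by 0.41 ± 0.08 (adjusted p = 0.0201). Arcn1, the delta subunit of coatomer, held 216.1, 214.3 and 217.8 CPM in CKO and 162.1, 175.5 and 178.4 CPM in control and rose by 0.33 ± 0.08 (adjusted p = 0.0275). Arf1 held 395.7, 392.6 and 392.8 CPM in CKO and 291.8, 295.6 and 292.3 CPM in control, nearly level within each group, and rose by 0.43 ± 0.07 (adjusted p = 0.0145). Copa overlapped between groups at -0.08 ± 0.08. Outside the coats, Srpr held 83.6, 78.2 and 76.8 CPM in CKO and 54.4, 47.5 and 49.9 CPM in control and rose by 0.65 ± 0.09 (adjusted p = 0.0102).

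Single libraries decide how many neurosphere members are called. Without CKO neurosphere 2 and without control neurosphere 3, 0 members were called; 2 were called without control neurosphere 2, 5 without CKO neurosphere 3, and 14 without either library numbered 1. With both libraries numbered 1 left out, 19 members were higher, including all 14 above and Copz1, Gbf1, Sec31a, Tmed3 and Tmed10. The shares of all genes called in these fits are not given here, so none of these counts can be set against a background. The authors' deposited table gave 4 members as higher in CKO neurospheres and 0 as lower: Kdelr3 with a signed fold change of 2.175, Srpr with 1.574, Kdelr2 with 1.518 and Sec13 with 1.456. Cell type markers also differed in these libraries. Fibroblast and pericyte markers summed to 173, 60.8 and 1520 CPM in CKO neurospheres 1, 2 and 3 and 24.2 to 67.3 CPM in control neurospheres, where Kcnj8 was at 0. Neuron markers summed to 948 to 1440 CPM in CKO and 1710 to 2100 CPM in control, and 4 of the 6 were called lower. Oligodendrocyte lineage markers summed to 1520 to 1740 CPM in CKO and 1680 to 2900 CPM in control; Pdgfra, Gpr17, Sox10 and Bcas1 were called lower, the median log2 fold change of the 6 was -3.99, and Olig1 and Olig2 were not called. Astrocyte markers summed to 1330 to 2200 CPM in CKO and 1840 to 4770 CPM in control, with 2 of 6 called lower. Stem cell markers summed to 7430 to 7770 CPM in CKO and 5860 to 6530 CPM in control, but Vim and Nes carry that sum: the other 4 of 6 had log2 fold changes below 0, the median was -0.31, and edgeR called 0 (2 higher and 0 lower at an unadjusted p under 0.05; 2 higher by DESeq2). Microglia markers summed to 1.1 to 4.38 CPM in CKO and 0.641 to 1.62 CPM in control. The part of these markers in the member differences was not tested.

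Intron reads were few in neurospheres. Of 38 members tested on them, 0 were higher and 0 lower by edgeR (1 and 0 at an unadjusted p under 0.05; 0 and 0 by DESeq2), beside 1.19% of all genes higher and 0.794% lower. That 0 rests on the libraries numbered 1: without both of them 5 members were higher (Kdelr2, Kdelr3, Sec31a, Tmed3 and Tmed7) and 2 lower (Copg2 and Mcfd2). The 1.19% and 0.794% belong to the fit of all neurosphere libraries, and the shares without both numbered 1 are not given here. Intron reads of Copg2 and Tmed7 were also out of proportion to their exon reads, as described below. For 2 members, Kdelr2 and Tmed1, every CKO library lay above every control library, and for 2, Copb1 and Mcfd2, below, where 14.7% and 13.9% of all genes did so. Kdelr2 stood at 50.8, 41.5 and 32.5 CPM of intron reads in CKO and 30.3, 22.2 and 21.1 CPM in control (0.76 ± 0.26, adjusted p = 0.133). Mcfd2 stood at 44.3, 44.1 and 45.2 CPM in CKO and 46.4, 58.5 and 70.8 CPM in control, a log2 fold change of -0.39 ± 0.21 on introns against 0.47 on exons. Its exon effect minus intron effect was 0.83 ± 0.21 (adjusted p = 0.107). On that difference edgeR called 0 members higher, as for all genes (0.0%), and 0 lower, beside 0.00875% of all genes (4 higher and 1 lower at an unadjusted p under 0.05; DESeq2 was not run on it). Without both libraries numbered 1, 4 were higher on it (Mcfd2, Copb2, Sec13 and Copg2) and 2 lower (Tmed3 and Tmed7), again with no share of all genes given. For Arf1 the difference was 0.20 in neurospheres, opposite in sign to brain; the tissues were not tested against each other on this measure.

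The effect in neurospheres minus the effect in brain was tested on exon reads for each member in 1 fit of all 12 libraries. For 2 members the neurosphere effect was lower: Sec23a, at -0.38 ± 0.09 (edgeR adjusted p = 0.0233), and Copa, at -0.33 ± 0.09 (adjusted p = 0.0365). For both, CKO libraries were above all controls in brain and overlapped with them in neurospheres. Of all 14415 tested genes 6.06% were called lower and 7.21% higher on this difference, and 0 members were called higher (3 at an unadjusted p under 0.05; 0 by DESeq2). Both calls depend on single libraries: with 1 left out at a time, Sec23a stayed called in 5 of 12 fits (adjusted p 0.00241 to 0.0651) and Copa in 2, those without control neurosphere 1 and without CKO neurosphere 1 (0.00337 to 0.0895 over all 12). The sign was negative in all 12 fits for both genes, and with no filter on low counts Copa was no longer called. Kdelr3 had the largest positive difference, 0.90 ± 0.40, which did not pass (adjusted p = 0.153). For Copb2, Kdelr2 and Srpr, called in both tissues, the differences were -0.12 ± 0.11, 0.12 ± 0.17 and 0.18 ± 0.12.

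Members with TGACGTGG in the promoter are described beside those without it, with no test. Arcn1, Lman1, Kdelr2, Tmed2 and Tmed7, which had no promoter entry, are in neither group. All of these but Tmed7 were called on neurosphere exon reads, and Kdelr2 also on brain exon reads. On brain intron reads 3 of the 7 were called (Arf1, Copb2 and Gbf1), beside 0.138% of all tested genes called higher, with a median log2 fold change of 0.36, and 2 of 27 without the letters, with a median of 0.13. On brain exon reads 1 of 7 was called, beside 0.243% of all tested genes, with a median of 0.26, and 1 of 26 without them, with a median of 0.17. In neurospheres 3 of 7 were called on exon reads (Arf1, Copb2 and Kdelr3), beside 14.7% of all tested genes, with a median of 0.25, and 7 of 26 without them, with a median of 0.16. On neurosphere intron reads the order of the medians was the opposite, -0.20 with the letters and 0.07 without, and edgeR called 0 of either. The median neurosphere effect minus brain effect was also lower with the letters, -0.04 against 0.06 without. Sec23a, which carries the letters, had an exon log2 fold change of 0.27 in brain and -0.12 in neurospheres.

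Without any knockout, control neurospheres and control brains differed in how much of this machinery they expressed. All 8 Tmed genes were higher in control neurospheres, as were the 3 genes of the lectin group, Kdelr1, Sar1a and Sar1b, while the scaffold gene Sec16a, Copg2 and Gbf1 were lower. The COPII coat was split, with Sec13, Sec23b and Sec24c higher and Sec24a, Sec24b, Sec23a and Sec31a lower. Of the COPI coat Copa, Copb1, Copb2, Cope, Copz1 and Copz2 were higher, as was Arf1. In all 24 of 38 members were higher, where 34.9% of 14415 tested genes were, and 7 were lower, where 35.5% were (edgeR). The median log2 difference was 0.46, against -0.01 for all genes. Tissue, culture, embryonic day, brain region, intron share and exon read depth differ together between these groups and cannot be told apart.

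Tmed3 showed the largest difference, with 42.7, 39.2 and 42.1 CPM in control neurospheres and 10.4, 11.7 and 12.0 CPM in control brains, a log2 difference of 1.86 ± 0.16 (adjusted p = 1.33e-06). Tmed1 followed at 1.61 ± 0.18 and Tmed9 at 1.47 ± 0.09, and Tmed2 had the smallest of the family, 0.45 ± 0.07. Kdelr1 held 92.3, 102.0 and 107.2 CPM in control neurospheres and 41.6, 47.4 and 41.5 CPM in control brains (1.21 ± 0.10, adjusted p = 1.12e-06), whereas Kdelr2 (-0.07 ± 0.12) and Kdelr3 (0.08 ± 0.29) did not differ detectably. Sar1b was 1.00 ± 0.11 higher and Sar1a 0.31 ± 0.10 higher. Sec16a, the scaffold of ER exit sites, was lower in control neurospheres, with 116.5, 117.9 and 113.4 CPM there and 203.0, 176.9 and 195.5 CPM in control brains (-0.73 ± 0.11, adjusted p = 9.06e-05). Leaving out any 1 of the 12 libraries gave 23 to 25 members higher and 4 to 7 lower. With no filter on low counts, 3 were lower: Gbf1, Sec23a, Sec24b and Sec31a lost their call.

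Levels per kilobase of exon, in CPM per kb on the scale of all 12 libraries, gave the order within each paralog set. Among the Sec24 cargo adaptors, Sec24c led in control neurospheres at 35.8, 34.2 and 35.7 CPM per kb, followed by Sec24b at 13.8 to 15.7, Sec24a at 6.03 to 7.93 and Sec24d at 4.58 to 5.82. The order was the same in control brains, with Sec24c at 24.98 to 29.6, Sec24b at 18.1 to 18.9, Sec24a at 9.52 to 10.49 and Sec24d at 4.00 to 6.16, and no neighbours overlapped in either. In CKO neurospheres Sec24a (5.97 to 8.04) and Sec24d (5.46 to 6.63) overlapped. Sec23a exceeded Sec23b in control neurospheres, 29.0 to 31.6 against 19.9 to 22.7 CPM per kb, but in CKO neurospheres they came together, at 27.2 to 29.9 for Sec23a and 26.8 to 28.0 for Sec23b, ranges that overlap. In brain Sec23a stayed far above Sec23b, at 43.9 to 44.6 against 12.6 to 17.4 CPM per kb in CKO and 36.4 to 37.8 against 10.9 to 15.1 in control.

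The KDEL receptors changed places between tissues. Kdelr1 was the highest of the 3 in control neurospheres, at 56.1 to 65.1 CPM per kb, ahead of Kdelr2 at 28.8 to 36.6 and Kdelr3 at 2.12 to 4.26. In control brains Kdelr2, at 31.3 to 35.8, was ahead of Kdelr1, at 25.2 to 28.8, and Kdelr3 stood at 2.66 to 3.79. In CKO brains the gap was wider, with Kdelr2 at 44.5 to 48.5 and Kdelr1 at 27.6 to 29.8. In CKO neurospheres the ranges overlapped, at 50.87 to 62.46 for Kdelr1 and 41.59 to 53.38 for Kdelr2. Sar1b was above Sar1a in control neurospheres (52.0 to 56.4 against 38.99 to 47.5 CPM per kb) and below it in control brains (24.6 to 30.8 against 34.2 to 38.6); in CKO neurospheres the ranges overlapped, at 43.4 to 52.9 for Sar1b and 51.2 to 56.5 for Sar1a.

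Copz1 was many times above Copz2 in both tissues, at 40.6 to 45.3 against 5.16 to 6.94 CPM per kb in control neurospheres and 19.6 to 24.4 against 2.51 to 3.04 in control brains. Copg1 was above Copg2 in control neurospheres (31.9 to 33.2 against 23.99 to 27.6). In control brains Copg2, at 33.61 to 38.8, and Copg1, at 31.4 to 33.55, lay side by side and only just did not overlap. Of Copg2 exon reads 86.8% were placed at 1 position, against 100% for Copg1. Their order was not examined on uniquely placed reads alone. Sec31b stood at 0.108 to 0.162 CPM per kb in control neurospheres and 0.0731 to 0.113 in control brains, against 20.6 to 26.01 and 26.9 to 28.4 for Sec31a. Arf1 was the highest member in all 4 groups, with 198 to 200 CPM per kb in CKO neurospheres, 146 to 150 in control neurospheres, 113 to 122 in CKO brains and 96.4 to 102 in control brains.

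**Figure D4:**
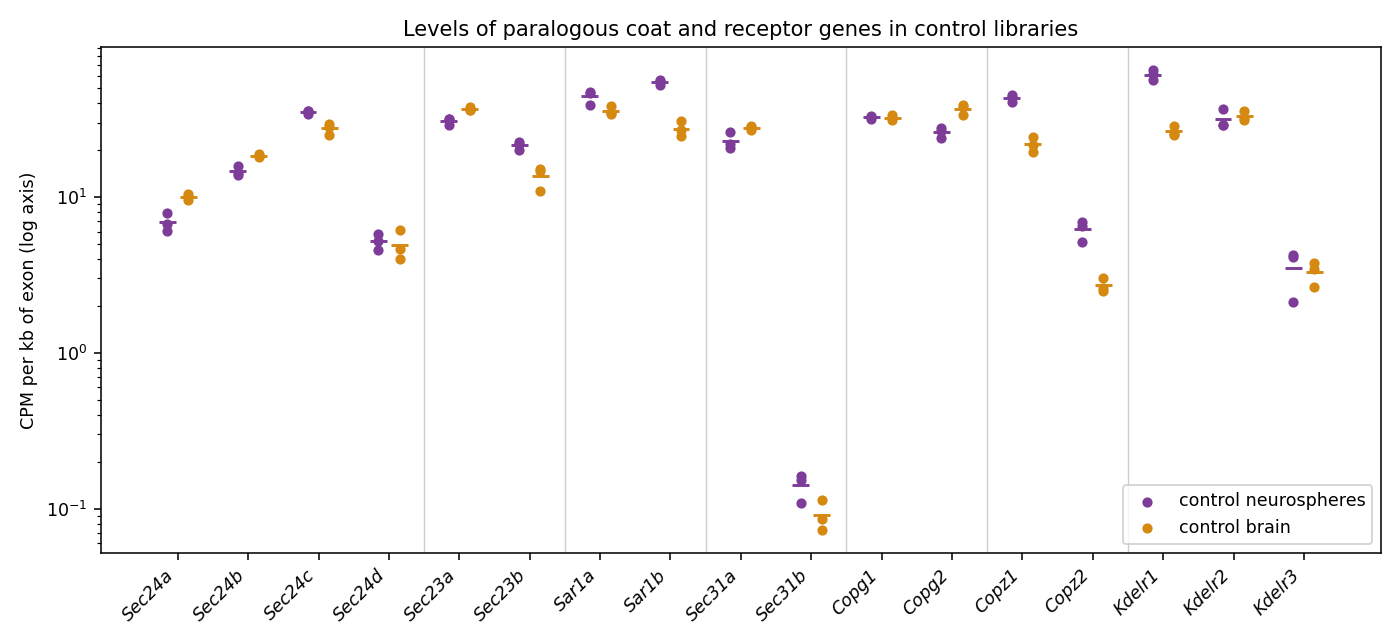
Exon level per length (CPM per kb, log axis) of the paralog sets in the 3 control neurosphere libraries (purple, left) and the 3 control brain libraries (orange, right), with the group mean as a bar. Kdelr1 lies above Kdelr2 in control neurospheres and below it in control brains, and Sec31b lies far below Sec31a in both.

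Other genes of the secretory pathway were counted from lists that hold no member. Of 45 tested genes for other ER-Golgi transport machinery (SNAREs, tethers, Rab GTPases, golgins and cargo exporters) 0 were called in CKO brains, although 40 were above 0, with a median log2 fold change of 0.13; of 22 genes of the ER translocon and signal peptide machinery 0 were called and 20 were above 0, with a median of 0.12 (edgeR; 9 and 5 higher and 0 lower at an unadjusted p under 0.05, and 0 by DESeq2). Of 11 tested regulators of the secretory pathway and unfolded protein response 2 rose: Eif2ak3, the ER stress kinase PERK, with 67.9, 67.0 and 66.9 CPM in CKO brains and 43.2, 44.4 and 47.8 CPM in control brains (0.58 ± 0.08, adjusted p = 0.0138), and Atf4, the transcription factor translated downstream of it (0.57 ± 0.09, adjusted p = 0.0327). Over all genes tested in brain, edgeR called 0.243% higher and 0.199% lower. Of all these genes 50.9% were above 0, and 4.24% were higher at an unadjusted p under 0.05. In CKO neurospheres 8 of the 46 transport genes rose and 1 fell, beside 14.7% of all tested genes called higher and 12.0% called lower, so the share that rose was near that of all genes (10 higher and 3 lower by DESeq2). Among them Gorasp2, a Golgi stacking protein, rose by 0.66 ± 0.09, Ergic1 by 0.49 ± 0.10 and the cargo receptor Surf4 by 0.45 ± 0.08, and the SNARE Stx5a fell by 0.49 on the log2 scale (-0.49 ± 0.10). Of the 22 translocon genes 7 rose and 1 fell there, beside the same 14.7% and 12.0% of all genes (10 higher and 1 lower by DESeq2), among them Sec61b (0.55 ± 0.09), Ssr1 (0.44 ± 0.08) and Srprb, the partner of Srpr (0.41 ± 0.08), while Sec62 fell (-0.41 ± 0.08). Of 12 regulators 1 rose in CKO neurospheres, again beside 14.7% of all genes: Atf4 (0.46 ± 0.11, adjusted p = 0.0261).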

How the data were processed

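Total RNA from mouse brain and neurospheres (500 ng, depleted of ribosomal RNA, directional library kit) was sequenced, per the labels' protocols. The authors deposited raw counts of reads for every gene in each library: over exons, over exons with unique placement, and inside genes outside exons, with no normalization, per the file headers. The deposited tables also hold a test named EDGE with a p-value, an FDR-corrected p-value and a fold change as a signed score (CKO over control where positive, minus control over CKO where negative), per the file headers. The submitters' processing notes name GRCm38 and mm10; the sources used here do not state an aligner, counter, annotation release or strand setting, and the coordinates listed in the tables do not match GRCm38, so none are printed. The 3731 genes whose exon length was 0 were left out of the 25655 listed; 132 columns of other per-sample values were not used. Deposited annotation columns gave exon length and chromosome.

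Counts were fitted in edgeR 4.0.16 (R 4.3.3) with TMM normalization, filterByExpr and robust two-sided quasi-likelihood F-tests; p-values were adjusted by Benjamini-Hochberg across every gene in the fit, with calls made below 0.05. Log2 fold changes were computed from the deposited counts, and their SE is the size of the change over the root of its F statistic. The 6 libraries of a tissue were fitted alone; the difference between tissues and the control comparison used all 12. Exon minus intron effects came from 1 fit per tissue over both kinds of count with library as a block. Normalised CPM use TMM factors of the fit they stand beside. Depth is the number of exon reads; precision is given as the spread between 3 libraries. Replicate libraries all differed by more than sampling noise (chi-square per degree of freedom 3.12 to 57.8 over genes with at least 20 reads), so each counted as 1. Alternatives were DESeq2 1.42.0, its size factors, no filter on low counts, unique reads, 1 fit of all libraries, a replicate block, and left-out libraries. The scripts were tested on simulated data. Promoters and overlaps came from RefSeq (GRCm38.p6) and GENCODE M21. The members, gene lists and motifs were chosen with earlier results of these data known. Named in full were members called in a CKO comparison and all paralog sets, with up to 4 called genes of lowest p per other list.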

Additional observations from a re-analysis of the deposited data

Results flagged for a closer look

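Copa and Sec23a are listed because the knockout effect differed between tissues by a direct test, which called 2 of 38 members lower beside 6.06% of all tested genes, a share near the background. For Copa the neurosphere effect minus the brain effect was -0.33 on the log2 scale (SE 0.09, edgeR adjusted p = 0.0365), with 342.6, 326.0 and 336.6 CPM in CKO neurospheres and 336.2, 374.1 and 354.9 CPM in control neurospheres. For Sec23a it was -0.38 (SE 0.09, adjusted p = 0.0233). Without both neurosphere libraries numbered 1 both stayed called, and the Copa difference was -0.43. Over the 12 fits without 1 library the Copa difference was -0.44 to -0.30 and was called in 2, and the Sec23a difference was -0.48 to -0.36 and was called in 5. Sec23a was no longer called without control brain 1 or 3, CKO brain 2 or 3, control neurosphere 2 or 3, or CKO neurosphere 2.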

How the results depend on the processing

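Across the alternatives, 0 members called in a main fit changed sign. Separately, 190 counts of called members were recomputed under alternatives, and 148 stayed within 1.5 times the reported count. Counts of 0 that stayed 0 are among the 148, so that share does not measure how stable the calls are. For brain exon reads the 3 higher calls became 6 by DESeq2, 8 with the replicate block (adding Arf1, Copa, Gbf1, Sec23a and Sec31a) and 0 in 1 fit of all 12 libraries. For neurosphere exon reads the block gave 13 in place of 14: 12 were shared, Kdelr3 and Lman1 were lost and Sec31a was gained. In 1 fit of all 12 libraries 17 were called there and 13 were shared. Sec23b was lost, and Arf4, Sar1a, Sec31a and Tmed10 were gained. Whether the replicate numbers pair the libraries was not settled. The deviations of same-numbered CKO and control brain libraries correlated at 0.42, 0.20 and -0.06, and those of differently numbered ones at -0.40 to 0.26. For neurospheres the same-numbered libraries correlated at 0.27, -0.03 and 0.28, and the differently numbered ones at -0.37 to 0.23. With no filter on low counts, members lower on the tissue difference of the knockout effect numbered 1, members lower in control neurospheres against control brains 3, and members higher on neurosphere exon minus intron effect 1. Without both neurosphere libraries numbered 1, 1 member (Kdelr3) was higher and 3 lower on the difference between tissues, 5 were higher and 2 lower on neurosphere introns, and 4 were higher and 2 lower on neurosphere exon minus intron effect. The shares of all genes called under the alternatives in this section are not given here. Leaving out 1 library at a time gave 0 to 1 higher members for brain exons, 0 to 14 for neurosphere exons, 0 to 2 lower on the difference between tissues, 23 to 25 higher and 4 to 7 lower between control tissues, 0 to 3 higher for brain introns, 0 to 2 for neurosphere introns and 0 to 1 for neurosphere exon minus intron effect. With 1 library left out the smaller group has 2. The cause of these changes was not tested. Intron reads in neurospheres numbered 1093233 to 2032174 per library, and the part of this depth in the precision there was not tested.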

Other observations

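Intron reads of Copg2, Tmed7 and Tmed10 were out of proportion to their exon reads. For Copg2 they made up 94.2% of its gene reads in brain and 76.2% in neurospheres, with 7929, 3459 and 2201 intron reads in CKO neurospheres 1, 2 and 3 and 5625, 3702 and 3713 in control neurospheres 1, 2 and 3. Mest lies over Copg2 on the opposite strand, and 86.8% of Copg2 exon reads were placed at 1 position, against 97.0% or more for each other member. For Tmed7 the share was 57.8% and for Tmed10 45.1% in neurospheres, where 24.4% was the highest among the other tested members. Ticam2 lies over Tmed7 on the same strand. The part of these overlapping genes in the intron reads was not tested.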
